A study of Homo sapiens with 4 samples.

Results

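The heat shock chaperone genes described here were the 10 protein-coding genes HSP90AA1, HSP90AB1, HSPA8, HSPA1A, HSPA1B, HSPD1, HSPE1, DNAJB1, HSPH1 and HSPA9, taken by name from the 20033 protein-coding genes of the GENCODE annotation of the human genome (build GRCh38, also called hg38). For each gene, every peak of RNA polymerase II (Pol II) inside the gene or within 5 kb of it was recorded. The peaks came from chromatin immunoprecipitation sequencing (ChIP-seq) of SK-OV-3, a cell line established from a human ovarian cancer. The cells expressed a short hairpin RNA, either shRRN3, which silences the RNA polymerase I initiation factor RRN3, or shLacZ, a control directed against a bacterial gene. Of 4 samples, 1 Pol II library per hairpin is used, and the input libraries (chromatin before the antibody step) were not analysed here. The series asked what RRN3 does to Pol II transcription. Since 1 library stood for each hairpin, no replicate error could be given for any difference, none was tested, and an effect of the hairpin cannot be told apart from a difference between libraries.

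Chaperones hold, fold and refold other proteins. HSP70 proteins bind short exposed stretches of unfolded chains in a cycle driven by ATP, J-domain proteins (HSP40) start that cycle, HSP110 proteins exchange the nucleotide, and HSP90 proteins act on nearly folded clients such as kinases and steroid receptors. In mitochondria a closed barrel of HSP60 with its lid HSP10 encloses single chains. The constitutive members are among the most transcribed genes of dividing cells, and the inducible ones are classic cases of a Pol II that waits just past the start until heat shock factor 1 (HSF1) binds heat shock elements, which are repeats of the letters GAA in alternating direction.

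In shLacZ the authors called 4014 peaks and in shRRN3 14363, and 3920 and 14322 of these lay on chromosomes 1 to 22, X and Y, so the lists differed in length before any gene was considered. Each peak has a deposited score, from 50.03 to 3100 in shLacZ and from 50 to 3100 in shRRN3. Scores depend on sequencing depth, which a peak list does not give, so a score is used below only as a rank in its own list, given as its percentile (ties at their mean rank). The same rank from the top gives a higher percentile in the longer list. A higher percentile in shRRN3 is therefore not a measure of change. Neither list had a peak in RRN3 or within 5 kb of it, so the lists hold no check of the knockdown. A peak list also holds little on cell identity. Of 6 epithelial genes, 0 had a start peak in shLacZ and 2, the keratin genes KRT8 and KRT18, had one in shRRN3, while 0 of 8 genes of other cell types had one in either list.

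The sequences just before the starts are given first, because they were searched for letters of the heat shock elements described above. Each line below holds the 250 bases before the start of the gene's canonical transcript, 5′ to 3′ on the gene's strand, read from the GRCh38 genome. Capitals mark elements of 2 GAA units that face each other or turn away 2 bases apart (GAANNTTC or TTCNNGAA, where N is any base) and the TATA box letters TATAAA. HSP90AA1, HSPA8, HSPD1 and HSPH1 are shown because they hold 3 alternating units in a row, DNAJB1 because it holds 2 separate elements of 2 units, HSP90AB1 because it holds none, and HSPA1A with HSPA1B because they are nearly the same sequence.
HSP90AA1 (chr14:102087045-102087294, minus strand): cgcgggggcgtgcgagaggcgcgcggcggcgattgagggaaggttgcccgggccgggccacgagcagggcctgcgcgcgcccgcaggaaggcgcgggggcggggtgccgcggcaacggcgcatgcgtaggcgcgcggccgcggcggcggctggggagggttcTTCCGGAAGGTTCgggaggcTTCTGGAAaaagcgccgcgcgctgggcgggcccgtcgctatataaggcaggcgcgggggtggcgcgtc
HSPA8 (chr11:123062137-123062386, minus strand): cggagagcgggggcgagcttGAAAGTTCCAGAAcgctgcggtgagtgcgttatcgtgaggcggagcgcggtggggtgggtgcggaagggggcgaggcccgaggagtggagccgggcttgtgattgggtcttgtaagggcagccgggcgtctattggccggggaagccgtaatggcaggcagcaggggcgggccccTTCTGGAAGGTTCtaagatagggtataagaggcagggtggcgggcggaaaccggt
HSPD1 (chr2:197499841-197500090, minus strand): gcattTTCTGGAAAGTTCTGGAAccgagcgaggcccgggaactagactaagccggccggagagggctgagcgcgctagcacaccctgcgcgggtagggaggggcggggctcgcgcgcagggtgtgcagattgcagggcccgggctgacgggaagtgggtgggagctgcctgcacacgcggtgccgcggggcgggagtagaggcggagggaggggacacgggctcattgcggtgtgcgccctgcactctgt
HSPH1 (chr13:31161905-31162154, minus strand): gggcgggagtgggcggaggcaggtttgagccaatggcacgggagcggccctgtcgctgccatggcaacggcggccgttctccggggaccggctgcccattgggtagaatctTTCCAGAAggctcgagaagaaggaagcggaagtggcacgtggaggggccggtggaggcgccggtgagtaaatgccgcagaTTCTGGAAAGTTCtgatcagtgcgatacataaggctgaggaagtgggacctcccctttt
DNAJB1 (chr19:14518398-14518647, minus strand): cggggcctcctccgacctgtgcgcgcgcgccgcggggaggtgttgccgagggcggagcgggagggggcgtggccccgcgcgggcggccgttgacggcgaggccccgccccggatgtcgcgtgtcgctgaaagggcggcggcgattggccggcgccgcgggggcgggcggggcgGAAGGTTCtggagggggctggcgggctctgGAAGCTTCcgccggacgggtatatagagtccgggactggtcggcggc
HSP90AB1 (chr6:44246851-44247100, plus strand): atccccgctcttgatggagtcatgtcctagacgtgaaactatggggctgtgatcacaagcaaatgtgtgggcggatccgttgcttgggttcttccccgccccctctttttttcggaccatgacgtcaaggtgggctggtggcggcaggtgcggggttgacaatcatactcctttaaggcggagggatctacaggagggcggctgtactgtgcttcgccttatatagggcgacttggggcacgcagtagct
HSPA1A (chr6:31815293-31815542, plus strand): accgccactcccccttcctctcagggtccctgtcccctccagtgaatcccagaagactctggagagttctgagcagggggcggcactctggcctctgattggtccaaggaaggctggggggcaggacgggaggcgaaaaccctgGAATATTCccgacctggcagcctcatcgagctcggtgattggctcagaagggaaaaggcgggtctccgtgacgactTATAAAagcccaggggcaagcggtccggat
HSPA1B (chr6:31827488-31827737, plus strand): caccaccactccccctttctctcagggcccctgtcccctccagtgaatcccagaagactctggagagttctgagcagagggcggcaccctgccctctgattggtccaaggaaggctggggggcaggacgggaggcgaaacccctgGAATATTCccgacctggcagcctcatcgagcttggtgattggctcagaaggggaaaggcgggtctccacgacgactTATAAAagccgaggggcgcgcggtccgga

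Searched on both strands from 250 bases before to 50 bases after the start, an element of 2 units was found in 8 of the 10 genes, all but HSP90AB1 and HSPE1, against 11.0% of 20032 promoters. A run of 3 units was found in 4 of the 10 against 0.364% of all promoters. A promoter counted once however many matches it held, and a run of 3 holds overlapping elements of 2. HSPD1 had 2 overlapping runs of 3, at bases -245 to -233 and -240 to -228 from the start. HSPA8 had one at -230 to -218 and another at -55 to -43, HSP90AA1 at -88 to -76 and HSPH1 at -59 to -47. In HSPA9 the single element lay across the start itself, at -4 to 4. HSPE1 lies head to head with HSPD1, and its 250 bases (chr2:197500129-197500378) begin past those of HSPD1. The overlapping runs of HSPD1 thus lie between the 2 starts but outside the window of HSPE1, so HSPE1 lacks the element only within its window. The letters TATAAA occurred in HSPA1A and HSPA1B, beside 9.71% of all promoters, and CCAAT, on either strand, in HSPA1A, HSPA1B, HSPA8, HSPH1 and DNAJB1, beside 36.1%. The search took exact letters only. The printed sequences of HSP90AA1, DNAJB1 and HSP90AB1 hold the letters TATATA near the start, which it did not count. These are matches of letters and not measured sites of any factor. In 9 of the 10 genes the window was the same as in the RefSeq promoter table of GRCh38.p14, and in HSPH1 it was not.

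Across the 10 genes, Pol II peaks were present at more starts and past more gene ends in shRRN3 than in shLacZ. A start peak means at least 1 base of a peak within 1 kb of the start of the canonical transcript, the one that annotators choose to stand for the gene. In shLacZ 4 genes had one (HSP90AA1, HSP90AB1, HSPA8 and DNAJB1), where 8.3% of all protein-coding genes did. In shRRN3 7 genes had one, the same 4 with HSPD1, HSPE1 and HSPA9, where 26.0% of all genes did. HSPH1, HSPA1A and HSPA1B had no peak in the gene or within 5 kb in either list, counting peaks on the primary chromosomes (the numbered ones, X and Y). Peaks on other sequences were not searched for any gene.

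The transcript body was counted from 1 kb past the start to the annotated end. In shLacZ 1 gene had body coverage, HSPA9, beside 4.18% of all genes. In shRRN3 5 genes had it, HSP90AA1, HSP90AB1, HSPA8, HSPD1 and HSPA9, beside 15.1%. In the 5 kb past the annotated end, 2 genes were covered in shLacZ, HSPA8 and HSPA9, beside 2.62% of all genes, and 7 were covered in shRRN3 beside 8.69%. Thus every member with a start peak in shRRN3 also had past-the-end coverage there, 7 of 7, where 18.4% of all genes with a start peak did. In shLacZ it was 1 of 4, HSPA8, beside 8.66%.

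Any peak in the gene or within 5 kb was found for 5 members in shLacZ, beside 14.5% of all genes, and for 7 in shRRN3, beside 39.0%. Counted in bases, 7 members were covered over more bases in shRRN3 and 0 over more in shLacZ, beside 38.0% and 2.45% of all genes. The direction was therefore that of the lists at large, of which shRRN3 was the longer. That list was also cut to its 3920 highest-scoring peaks, to match the shLacZ list. In the cut list 5 members had a start peak, beside 10.8% of all genes, against 4 in shLacZ, so most of that gap was gone. Past-the-end coverage was present in 6, beside 3.52%, against 2 in shLacZ. There 7 members had more covered bases in the cut shRRN3 list and 0 in shLacZ, beside 15.9% and 6.8% of all genes. Of the genes with a start peak in both lists, the start window was covered over more bases in shRRN3 in 4 of 4 members, beside 86.2% of all such genes.

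**Figure D1:**
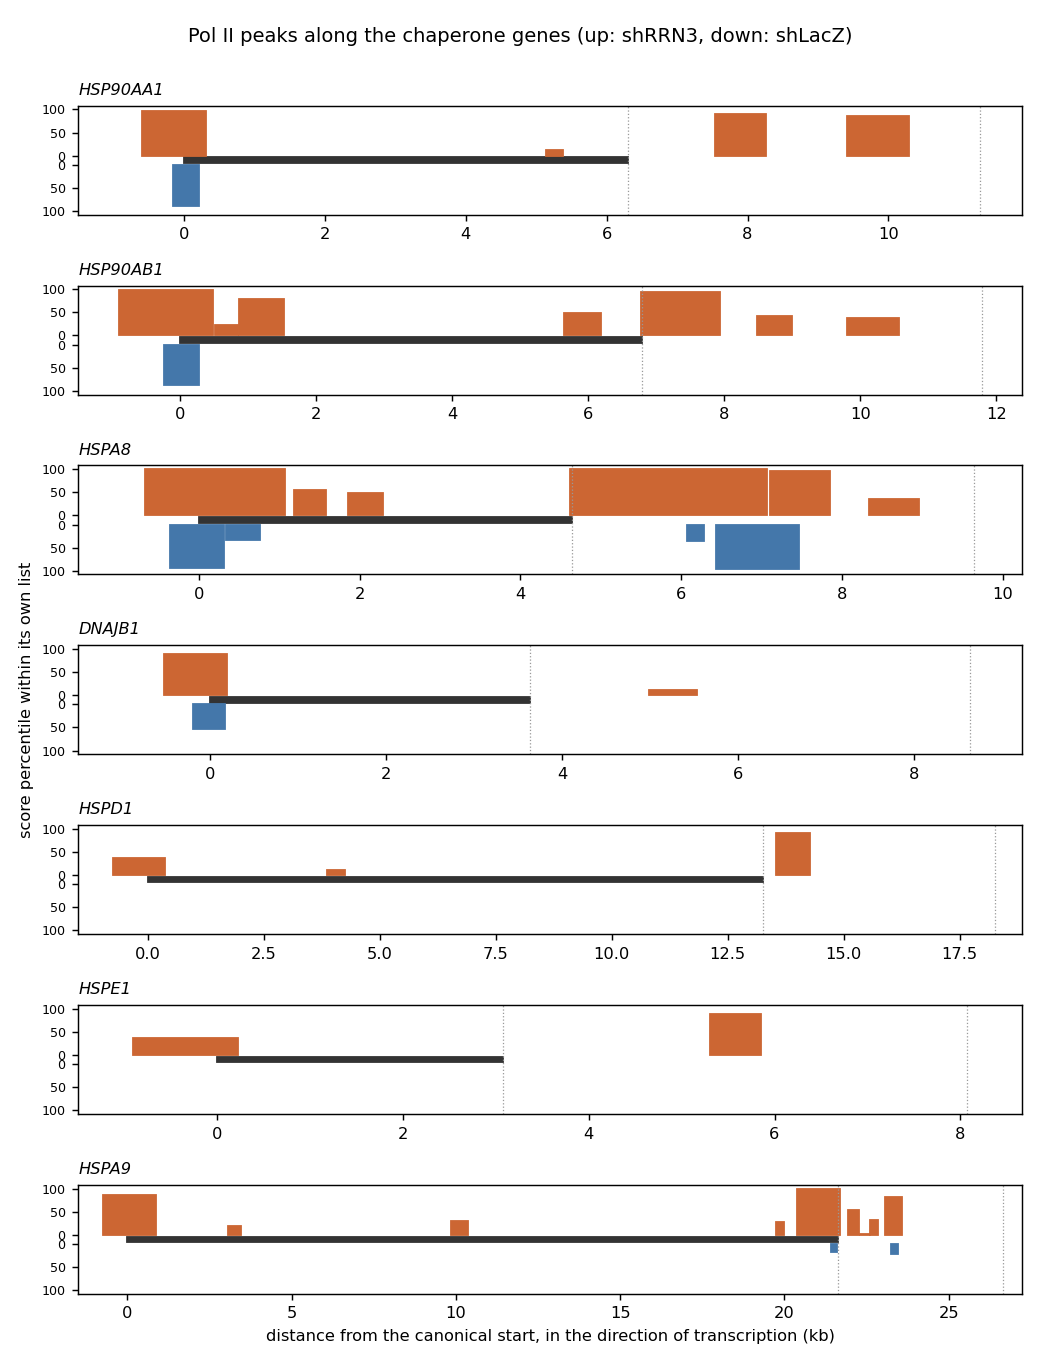
Pol II peaks along the 7 chaperone genes that had any peak. The horizontal axis is the distance in kb from the canonical start in the direction of transcription; dark bars are the transcripts, dotted lines mark the end and 5 kb past it, and each box is a peak with its true width, its height being the percentile of its score in its own list, upward for shRRN3 and downward for shLacZ. HSPD1 and HSPE1 have boxes on the shRRN3 side alone, and HSPA8 has boxes at the start and past the end on both sides.

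In all, 9 distinct shLacZ peaks and 33 distinct shRRN3 peaks lay in or within 5 kb of the genes. All 9 from shLacZ shared bases with peaks of shRRN3, and 8 of the 33 from shRRN3 shared bases with peaks of shLacZ. The same shares over all peaks were not computed. Of all genes with a start peak in shLacZ, 86.2% also had one in shRRN3, and 27.5% the other way. These overlaps are therefore not given as a trait of the chaperone genes. These sets had median widths of 376 bp (shLacZ) and 601 bp (shRRN3), where the whole lists had medians of 306 and 432 bp. Both sets of member peaks sat near the middle of their lists by score, with a median percentile of 53.7 in shLacZ and 55.2 in shRRN3. Counted from the top, the start peak of HSPA8 ranked 252 in shLacZ and 66 in shRRN3, and that of HSP90AB1 471 and 225. The start peak of DNAJB1 ranked 1817 and 1677, and that of HSP90AA1 456 and 614.

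The cytosolic HSP90 genes come first by role. HSP90AA1 encodes HSP90 alpha, the stress-inducible form, on chromosome 14 (transcript 102080742 to 102087044, minus strand). Its start peak was 376 bp wide in shLacZ (chr14:102086824-102087199), from base -155 to base 220 around the start, at the 88.4th percentile of score. In shRRN3 the start peak was 905 bp wide, from base -591 to base 313, at the 95.7th percentile. Both peaks contained the 3-unit element of the printed sequence. Past the end there was no peak in shLacZ and there were 2 in shRRN3, one of 721 bp from 1237 to 1957 bp past the end, at the 89.3rd percentile, and one of 884 bp from 3109 to 3992 bp past it, which also lay over the small RNA pseudogene RN7SL472P. A single weak shRRN3 peak of 236 bp, at the 12.9th percentile, lay in the body over exon 11.

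HSP90AB1 encodes HSP90 beta, the constitutive form, on chromosome 6 (44247101 to 44253883, plus strand). In shLacZ its start window, 2001 bp long, was covered over 506 bp (25.3%) by 1 peak at the 88.0th percentile. In shRRN3 it was covered over 1845 bp (92.2%) by 3 peaks, the highest at the 98.4th percentile, and 44 protein-coding genes had more start coverage. This was the most covered start among the members, and it belongs to a promoter without the searched element. The body had no peak in shLacZ and 1073 covered bp in shRRN3, part of it by a peak in intron 1 that ran on from the start window. Past the end, no base of the 5 kb was covered in shLacZ, and 2427 bp (48.5%) were in shRRN3. The strongest of the 3 shRRN3 peaks there, 1163 bp wide at the 93.8th percentile, began 10 bp before the annotated end and reached 1152 bp past it. All 3 also lay over SLC35B2, a transporter gene that is transcribed toward HSP90AB1, and peaks carry no strand, so Pol II of the 2 genes cannot be told apart there.

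The cytosolic HSP70 machinery had its clearest case in HSPA8, which encodes HSC70, the constitutive HSP70, on chromosome 11 (123057489 to 123062136, minus strand). In shLacZ the start window was covered over 1084 bp (54.2%) by peaks of 667 and 417 bp at the 93.6th and 34.4th percentiles, and 65 genes had more. In shRRN3 it was covered over 1674 bp (83.7%) by 1 peak of 1741 bp (chr11:123061069-123062809) at the 99.5th percentile, and 107 genes had more. By score this was the start peak that ranked 20 among the 5202 genes with one in shRRN3, and in shLacZ the rank was 91 of 1662.

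HSPA8 was also the member with most Pol II past its end in both lists. In shLacZ 1256 bp of the 5 kb (25.1%) lay under peaks, and 33 protein-coding genes had more. In shRRN3 3795 bp (75.9%) did, and 6 genes had more (VMP1, HIF1A, TPT1, S100A5, RPL37A and BEST1). Past-the-end coverage of this gene was therefore near the top of both lists, and it was present without RRN3 silencing. The main shLacZ peak, 1035 bp wide (chr11:123054666-123055700), ran from 1789 to 2823 bp past the end at the 96.8th percentile, which was above the gene's own start peak. In shRRN3 a peak of 2445 bp (chr11:123055074-123057518) ran from 29 bp before the end to 2415 bp past it at the 99.5th percentile, a 751 bp peak followed from 2458 to 3208 bp, and a 629 bp peak from 3686 to 4314 bp. So the covered stretch began at the annotated end in shRRN3 and 1422 bp past it in shLacZ. Its body was free of peaks in shLacZ, while 936 bp (25.7%) were covered in shRRN3, by 2 peaks between intron 2 and exon 5 and by the inner edges of the start and past-the-end peaks. HSPA8 hosts the small nucleolar RNA genes SNORD14C, SNORD14D and SNORD14E in its introns, and reads of host and guest cannot be separated in such a list.

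**Figure D2:**
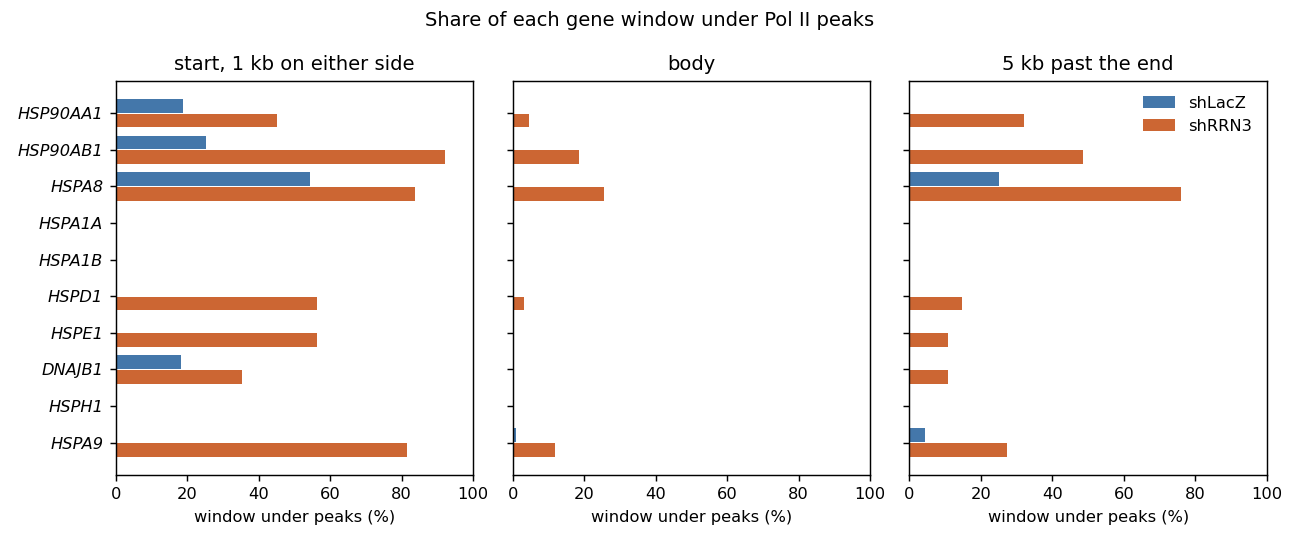
Share of each window under Pol II peaks for the 10 genes. The horizontal axes give the percentage of the window covered, the panels are the start (1 kb on either side), the body and the 5 kb past the end, and blue and orange bars are the single shLacZ and shRRN3 libraries. The longest bars are the start of HSP90AB1 in shRRN3 (92.2%) and, past the end, HSPA8 in shRRN3 (75.9%), and 3 genes have no bar at all.

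DNAJB1 encodes the main stress-induced HSP40, which feeds clients to HSP70, on chromosome 19 (14514769 to 14518397, minus strand). Its start peak was 364 bp wide at the 53.7th percentile in shLacZ and 708 bp wide at the 88.3rd percentile in shRRN3. Both start peaks covered the 2 separate elements of the printed promoter. No body peak was present in either list. A past-the-end peak of 544 bp, from 1356 to 1899 bp, occurred in shRRN3 alone and ranked low, at the 11.8th percentile. The start peaks also lay inside TECR, a gene of lipid synthesis whose annotated span overlaps this end of DNAJB1.

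HSPH1 encodes HSP105, an HSP110-type exchange factor, on chromosome 13 (31134973 to 31161904, minus strand). It had no peak in either list, although its promoter holds a run of 3 units as those of HSP90AA1 and HSPA8 do. In shLacZ the gene lay in a stretch of 5.0 Mb without a peak that held 14 protein-coding genes. In shRRN3 the stretch was 0.194 Mb and its nearest peak edge upstream was at 31172515. Of 50-base words in this transcript, 1.0% occurred elsewhere in the reference, the lowest share of the 10.

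HSPA1A and HSPA1B, the major heat-inducible HSP70 genes, cannot be read from these lists. They lie side by side on chromosome 6 (31815543 to 31817942 and 31827738 to 31830254) within the major histocompatibility complex. In shLacZ no peak lay between 28225122 and 33789006, a stretch of 5.56 Mb with 196 protein-coding genes, and in shRRN3 none lay between 28383764 and 33711290, 5.33 Mb with 186. No other peak-free stretch held more than 111 genes in shLacZ or 88 in shRRN3. The reference used here has 455 sequences, of which 431 are other than chromosomes 1 to 22, X and Y, and the region is repeated among them. Of 50-base words in the HSPA1A transcript, 75.1% occurred again on the primary chromosomes, all of them in HSPA1B, and 100% occurred again when the other sequences were counted. For HSPA1B the values were 71.6% and 100%. The promoters printed above were 94.4% identical over 249 aligned bases, with 14 mismatches.

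The other 8 genes had between 1.0% and 11.7% of their 50-base words elsewhere in the reference, and at 100 bases between 0% and 1.85%. The 5 kb past the ends of HSPA1A and HSPA1B, which the genes do not share with each other, were also at 100%. Absence of a peak at these genes is therefore given as a gap in the lists and not as absence of Pol II. The build was hg38. Of the 4014 shLacZ peaks 3920 lay on the primary chromosomes, and of the 14363 shRRN3 peaks 14322 did. The authors' copy of the build therefore held some sequence beyond the primary chromosomes. Whether it held the sequences that repeat this region was not tested, and peaks outside the primary chromosomes were not searched. How reads with several places were treated is not given in the sources used here. The part of repeated sequence in the gap was not tested.

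**Figure D3:**
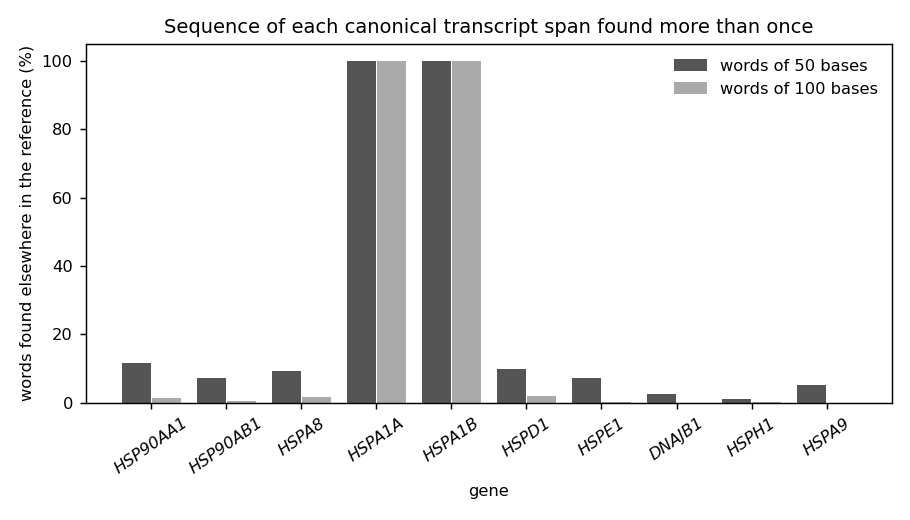
Share of each canonical transcript span that occurs more than once in the reference. Bars give the percentage of all words of 50 bases (dark) and of 100 bases (light) that are found elsewhere, on either strand. HSPA1A and HSPA1B stand at 100% at both lengths, and the other 8 genes stay at or below 11.7% and 1.85%.

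The mitochondrial chaperones were covered mainly in shRRN3. HSPD1 (HSP60) and HSPE1 (its lid HSP10) lie head to head on chromosome 2, with starts at 197499840 on the minus strand and 197500379 on the plus strand. In shLacZ neither gene had a peak, and both lay in a peak-free stretch of 2.48 Mb with 11 protein-coding genes. In shRRN3 1 peak of 1129 bp (chr2:197499468-197500596) spanned both starts and covered 56.4% of each start window, but it ranked low, at the 36.9th percentile. It counts for both genes, so the 7 start peaks of shRRN3 rest on 6 separate regions.

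Past the ends the pair ranked higher. HSPD1 had a shRRN3 peak of 738 bp from 279 to 1016 bp past its end, at the 90.0th percentile, and HSPE1 one of 546 bp from 2235 to 2780 bp past its end, at the 87.7th. In both genes the past-the-end peak outranked the shared start peak. The HSPE1 peak lies inside HSPE1-MOB4, an annotated transcript that continues from HSPE1 into the next gene, MOB4, and inside the longest annotated span of HSPD1. HSPD1 also had a weak body peak of 388 bp in intron 3, at the 10.2nd percentile.

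HSPA9 encodes mortalin, the mitochondrial HSP70, on chromosome 5 (138553756 to 138575401, minus strand). Its start was covered over 0 bp in shLacZ and over 1629 bp (81.4%) in shRRN3, by a peak at the 86.5th percentile, and 129 genes had more in shRRN3. The end of the gene was marked in both lists. In shLacZ a peak of 168 bp lay in the last exon, from base -213 to base -46 before the end, at the 17.9th percentile, and one of 220 bp lay 1598 to 1817 bp past the end, at the 20.9th. In shRRN3 a peak of 1306 bp (chr5:138553712-138555017) ran from 1261 bp before the end to 44 bp past it at the 99.0th percentile, ranking 145 in the whole list. Another 4 peaks followed in the 5 kb past the end, the widest 495 bp, from 1425 to 1919 bp, at the 81.4th percentile. HSPA9 was thus the member with peaks at its end but not at its start in shLacZ, and the one whose highest-scoring peak in shRRN3 lay in its last exon. Its introns host SNORD63 and SNORD63B.

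**Figure D4:**
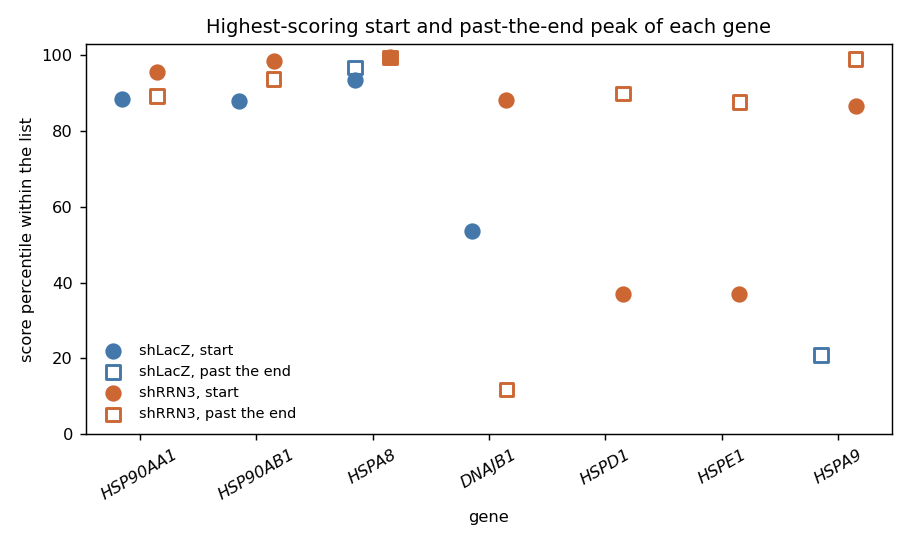
Highest-scoring start peak (filled circles) and past-the-end peak (open squares) of each gene with a peak. The vertical axis is the percentile of the score within the same list, with shLacZ in blue and shRRN3 in orange, 1 library each. HSPA8 is high in all 4 marks, HSPD1 and HSPE1 have their past-the-end mark (90.0 and 87.7) far above their start mark (36.9), and DNAJB1 has the reverse order.

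With both windows occupied, the highest-scoring past-the-end peak outranked the highest-scoring start peak in 1 of 1 members in shLacZ (HSPA8), where 36.1% of all such genes did, and in 3 of 7 in shRRN3 (HSPD1, HSPE1 and HSPA9), where 39.9% did. The shRRN3 share of the members was near that of all genes. In HSPA9 that peak had only 44 bp past the end, and the next one, at the 81.4th percentile, ranked below the start peak.

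The distance past the end at which peaks lay was compared in bins of 500 bp. In shRRN3 4 of the 10 genes were covered in the first bin, beside 2.6% of all genes. Between 1000 and 1499 bp 6 were covered, beside 3.12%, which was also the highest shRRN3 share of all protein-coding genes. Between 1500 and 1999 bp 5 were covered, beside 2.83%. Farther out, 1 was covered between 4000 and 4499 bp, beside 1.83%, and 0 between 4500 and 4999 bp, beside 1.67%. In shLacZ 2 genes, HSPA8 and HSPA9, were covered between 1500 and 1999 bp, where 0.614% of all genes were. In the first bin 0 were, beside 0.679% of all genes. With 10 genes, a count of 0 is near these shares. Between 5 and 20 kb past the ends, shLacZ had no peak at any of the 10 genes. In shRRN3 there was a peak of 1004 bp 9893 bp past HSPA9, one of 462 bp 18167 bp past DNAJB1, and the MOB4 start 12231 bp past HSPE1. The shares over all genes at this distance were not computed, so these peaks are not given as a trait of the chaperone genes.

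**Figure D5:**
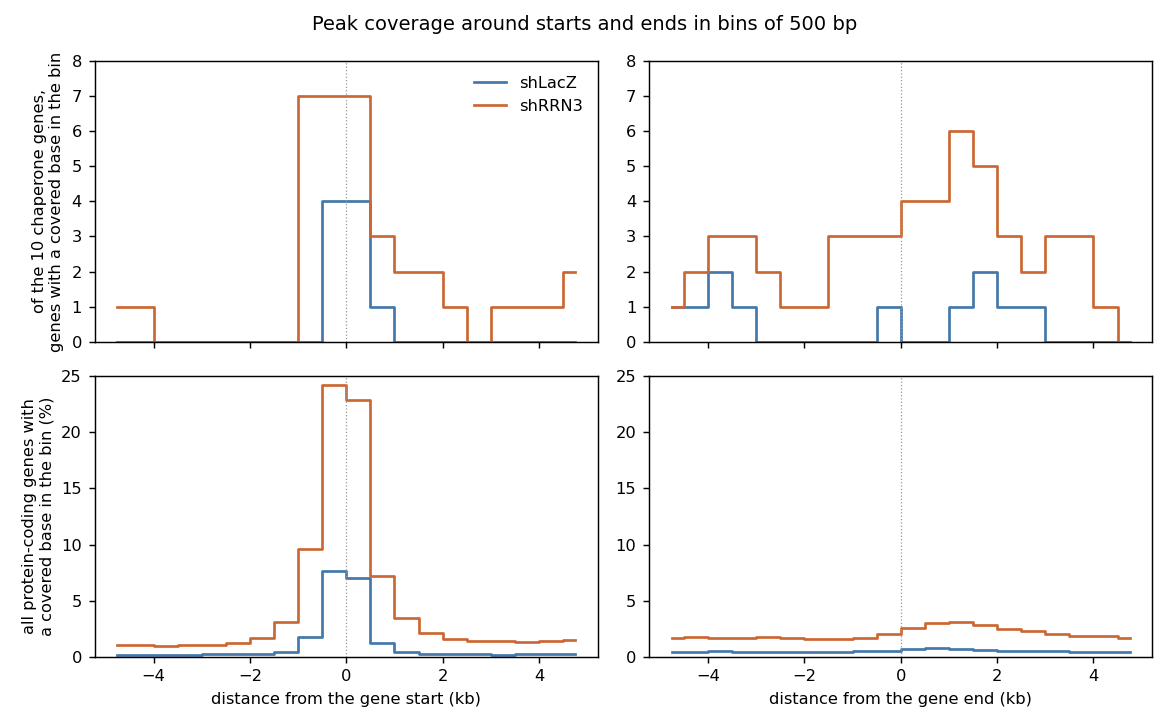
Peak coverage around starts and ends in bins of 500 bp, from 5 kb before to 5 kb after. Upper panels count the chaperone genes, of 10, with a covered base in the bin, and lower panels give the percentage of all protein-coding genes, with shLacZ in blue and shRRN3 in orange. In the upper right panel the shRRN3 line is highest, at 6 genes, between 1000 and 1499 bp past the end, where the line of all genes stands at 3.12%.

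Several members have many annotated pseudogenes, picked here by name, copies that could share reads with the parent. The annotation names 26 for HSPE1, 18 for HSPD1, 17 for HSPA8, 6 for HSP90AB1, 5 for HSP90AA1, 2 for DNAJB1 and 1 for HSPA9. In both lists 0 of these copies carried a peak. The share over all pseudogenes was not computed, so the 0 has no value to stand beside, and shared reads were not tested. In the parent genes, the whole start windows were largely unique sequence. The share of repeated 50-base words in them ran from 0% in HSP90AB1 and HSPD1 to 4.76% in DNAJB1. In the 5 kb past the end the share ran from 0% in HSP90AB1 to 14.5% in HSP90AA1 and 15.8% in HSPD1. The bases under the peaks alone were not counted.

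The other genes of the chaperone network, 79 in all, were counted in the same way. A start peak was present in 16 (20.3%) in shLacZ and 42 (53.2%) in shRRN3, beside the same 8.3% and 26.0% of all genes. With the shRRN3 list cut to the length of the shLacZ list, 19 network genes had a start peak there, so most of the gap to the 16 of shLacZ was gone, beside 10.8% of all genes in the cut list. Past-the-end coverage was present in 3 of 79 in shLacZ and 16 of 79 in shRRN3, beside 2.62% and 8.69% of all genes, and the shLacZ count is near that of all genes. The TRiC subunits, which build the cytosolic barrel that folds actin and tubulin, had a start peak in 5 of 8 in shLacZ and 8 of 8 in shRRN3, led in both by CCT5, at the 88.8th and 90.2nd percentiles, and TCP1. Among the other HSP70 and HSP110 genes it was 2 of 11 and 5 of 11, and HSPA5, the HSP70 of the endoplasmic reticulum, stood at the 7.95th percentile in shLacZ and the 97.6th in shRRN3. The remaining HSP90 genes, HSP90B1 of the endoplasmic reticulum and TRAP1 of mitochondria, had 0 of 2 and 2 of 2.

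Among other J-domain genes 6 of 21 had a start peak in shLacZ and 10 of 21 in shRRN3, with DNAJC9, a histone chaperone, at the 98.0th and 97.1st percentiles. DNAJB9, DNAJC2 and DNAJC7 were the network genes with a start peak in shLacZ alone, and the DNAJB9 peak, at the 85.6th percentile, was the highest of these. Cochaperones and exchange factors had 3 of 18 and 11 of 18, with AHSA1, which stimulates the ATPase of HSP90, at the 96.0th and STIP1, which links HSP70 to HSP90, at the 90.9th percentile in shRRN3. Mitochondrial proteostasis genes had 0 of 7 and 4 of 7, led by GRPEL2, an exchange factor for HSPA9, at the 95.9th. Small heat shock protein genes had 0 of 8 and 2 of 8, HSPB1 and HSPB6. The 4 heat shock factor genes had 0 in both lists. In the network, an element of 2 GAA units was found in 23 of 79 promoters, beside 11.0% of all promoters. A run of 3 was found in 6 of 79, beside 0.364%, those of HSPA6, DNAJB6, DNAJA1, CHORDC1, CRYAB and ST13.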

How the data were processed

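Pol II ChIP-seq peaks were taken as the authors deposited them, 1 list per hairpin, called per library. Each list gives chromosome, start, end, a name carrying the word MACS, and a score. The deposited score was used only as a rank among peaks on the primary chromosomes of the same list, ties at their mean rank. The build is hg38 per the submitters' processing notes. The aligner, the program version, the threshold, the read length, the treatment of duplicates and the use of the input are not given in the sources used here. Depth is unknown from peak lists, so no interval is given.

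Genes came from GENCODE release 44. Starts and ends were those of the canonical (MANE Select) transcript, because the outer bounds of HSP90AA1, HSPD1 and DNAJB1 lie far upstream of it. Windows, words and motifs were counted with Python 3.11.15, numpy 2.4.6, pandas 2.3.3 and scipy 1.17.1, aligned with Biopython 1.88, plotted with matplotlib 3.10.9 and tested on simulated lists. The members and lists were chosen with earlier results of these data known. The text names all 10 members, up to 2 genes per other list and peak list with the highest-scoring start peak, every network gene with a start peak in shLacZ alone, and annotated genes under or beside a member peak. Genes named for coverage past the end or for motifs were chosen after their values were seen.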

Additional observations from a re-analysis of the deposited data

Results flagged for a closer look

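One shRRN3 peak, counted above among the 33 and as the peak 12231 bp past HSPE1, lay in none of the start, body or 5 kb past-the-end windows of the 10 genes. It was 601 bp wide (chr2:197515680-197516280), at the 68.1st percentile of score, and lay under the longest annotated span of HSPD1 at the start of MOB4, a gene of the kinase-adaptor family that follows HSPE1. The shLacZ list had no peak there. With 1 library per hairpin the difference was not tested.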

How the results depend on the processing

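For 11 counts and medians, 53 values were computed under other settings, and 44 of them stayed within 1.5 times the reported count or close to the reported median. Some of the 44 could not change. Cutting the shRRN3 list leaves shLacZ counts as they are, and leaving out HSPA1A and HSPA1B removes genes without any peak. With the outer bounds of each gene in place of the canonical transcript, members with a start peak in shLacZ fell to 2 and those with body coverage in shLacZ rose to 5, since the starts of several genes then lay elsewhere. In shRRN3 the members with a start peak fell from 7 to 5 under these bounds, under the stricter score given next, and in the cut list. With only scores at or above 66.05, the shLacZ median, in both lists, body coverage was left in 0 members in shLacZ and 3 in shRRN3, and past-the-end coverage in 1 member in shLacZ. With the shRRN3 list cut to 3920 peaks, body coverage remained in 3 members there and a start peak in 19 of the 79 network genes. Ranked by width in place of score, the median percentile of start peaks was 68.2 in place of 88.2 in shLacZ and 94.1 in place of 88.3 in shRRN3. Leaving bases of other annotated genes out, a setting chosen after the data were seen, left past-the-end coverage in 2 members in shLacZ and 6 in shRRN3. The count of members with more covered bases in shRRN3 stayed at 7 under each of its settings. No paired analysis was possible because each hairpin had 1 library, and for the same reason no library could be left out. Unknown depth limits every absence: a gene without a peak may carry Pol II below the threshold.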
